A study of Macaca mulatta with 25 samples.

Results

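The genes described here make, take up and sense cholesterol, and their transcripts were measured by RNA sequencing in blastocysts of the rhesus macaque, embryos with a fluid-filled cavity that have not yet implanted. The set was a list of 28 gene symbols, and a symbol table paired 26 of them with an identifier in the deposited table of 35395 genes. CYP51A1 and EBP were not paired with an identifier and were not analysed here. Of the 26, 25 had at least 1 CPM (counts scaled to equal library size) in at least 5 libraries and entered the tests together with all other such genes, 13934 in all. ACAT2, the thiolase that opens the pathway, stayed under this level at 0 to 1.17 CPM and was not tested. In the annotation of another build its span overlaps TCP1, and how reads of overlapping genes were counted is not given. Its low counts may thus not reflect its expression.

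The embryos came from eggs of females that had been under treatment since about 2.5 years of age, before puberty, with 10 females per group at the start. Control females (C) carried cholesterol implants and ate chow with 15% fat, 59% carbohydrate and 26% protein. Testosterone females (T) ate the same chow and carried implants that held testosterone at 3 to 5 times the normal level. Diet females (WSD) ate a Western-style diet with 36% fat, 46% carbohydrate and 18% protein, and the labels do not say whether they carried an implant. Females with both (TWSD) had testosterone implants and the Western-style diet. Ovarian stimulation after 5 to 6 years was possible in 10 females of C, 7 of T, 6 of WSD and 3 of TWSD. Semen for the in vitro fertilisation came from proven males, and culture lasted up to 8 days. The labels do not say whether 1 library is 1 embryo. The table held 5 C libraries (numbers 1, 2, 8, 11 and 12), 10 T libraries (1 and 3 to 11), 8 WSD libraries (1, 3, 4 and 6 to 10) and 2 TWSD libraries (2 and 3). Parents are not given per library and may be shared, so a p-value here measures spread among these samples alone.

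Cells build cholesterol from acetyl-CoA. The early steps make mevalonate and join its isoprene units into farnesyl diphosphate, and the later steps turn this into squalene, close the sterol rings and trim them to cholesterol. When membranes of the endoplasmic reticulum run low in sterol, the escort protein SCAP carries the SREBF transcription factors to the Golgi, where they are cut and released to switch on synthesis and uptake genes. INSIG proteins hold SCAP back when sterol is plentiful, and INSIG1 is itself a target of the SREBF factors. Dividing embryonic cells need cholesterol for new membrane, and trophoblast also uses it as the raw material of steroid hormones.

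Library totals ran from 14219054 to 35544542 counts, so that 1 CPM was 14.2 counts in the shallowest library. Some libraries stood apart before any gene of the set is considered. The scaling factors of C 12 and TWSD 2 were 0.71 and 0.76, against 0.94 to 1.10 in the other 23 libraries. Summed CPM of 8 primitive endoderm markers was 18657 in C 11, of which APOA1 made up 17177, and lay between 694.9 and 5029 in the other 24. Summed CPM of 7 epiblast markers was 6.06 in C 12 and 26.8 in C 11, against 372.5 to 1512 elsewhere. Syncytiotrophoblast markers summed to 11859 in C 8, 8180 in C 12, 4247 in T 1 and 3940 in C 11, and to between 57.3 and 552 in the remaining 21. Trophectoderm markers, with 7 of 9 listed genes matched, were present in every library at 1699 to 18468 CPM. Oocyte markers summed to 1.67 to 169 CPM, cumulus and granulosa markers to 75.3 to 2746, sperm markers to at most 3.45 and blood markers to 2.25 to 21.8. In bulk samples such as these, fewer cells of a type and less RNA per cell cannot be told apart.

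The largest spread of the cholesterol genes lay among the control libraries. C 11 held the highest level of 17 of the 25 tested genes. C 12 held the lowest level of 13 and TWSD 2 that of 7 more. The like counts over all genes tested were not made, so these counts are not shown to be particular to the set. The mean log2 level of the 25 genes, each taken relative to its own median over all libraries, was 1.51 in C 11 and -2.30 in C 12. The other control libraries lay at -0.65 in C 1, 0.01 in C 2 and 0.22 in C 8. T libraries ran from -0.71 to 0.44 with a median of -0.24, and WSD libraries from -0.72 to 0.70 with a median of 0.20. TWSD 2 lay at -1.96 and TWSD 3 at 0.08. The T and WSD libraries thus fell inside the range of the controls, and both extremes of the whole series were control libraries.

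**Figure D1:**
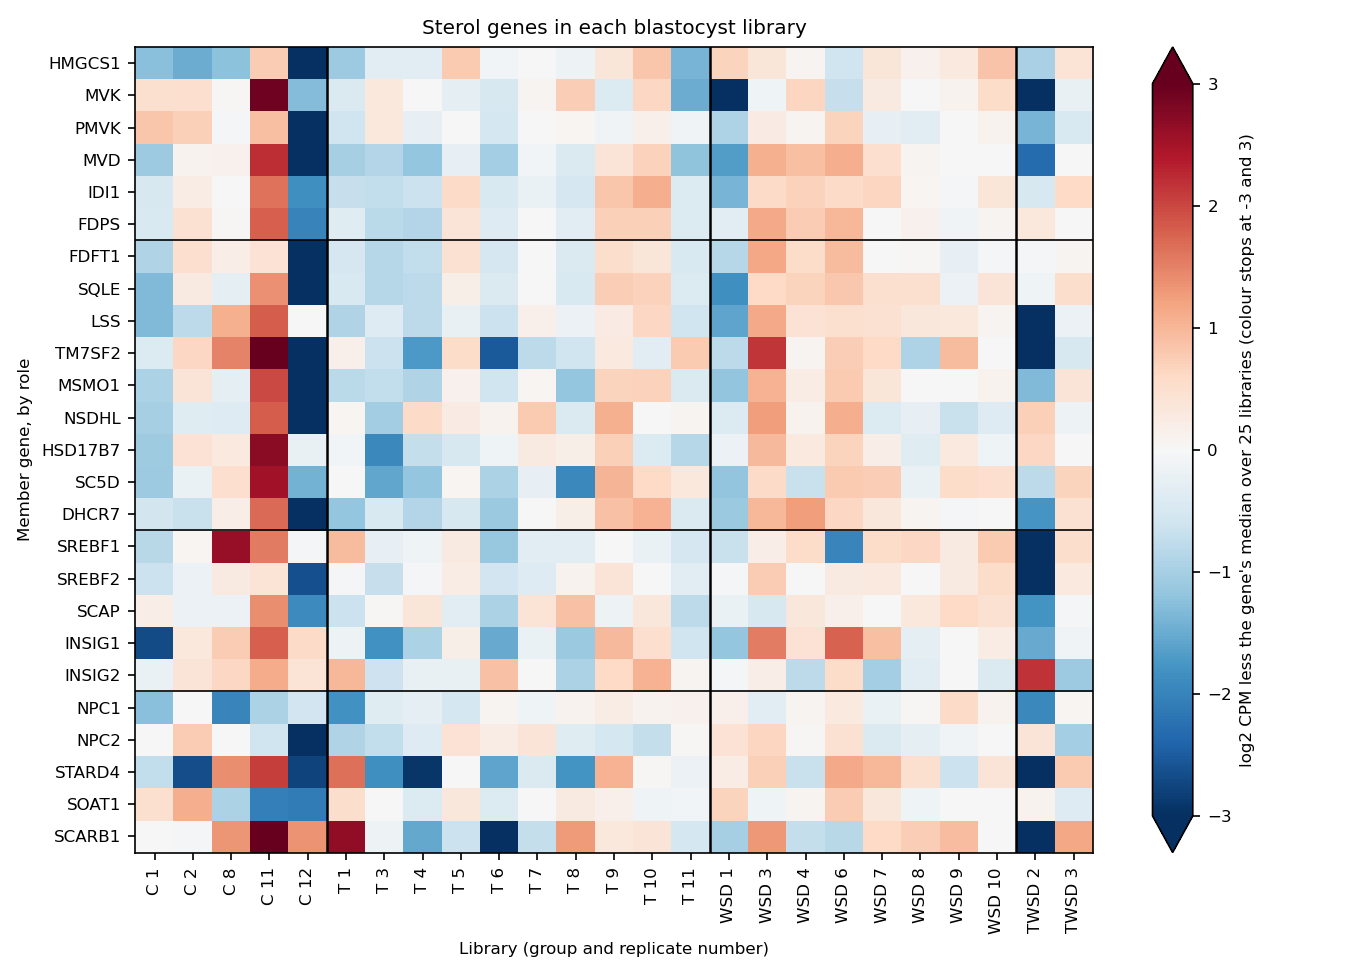
Each row is 1 of the 25 tested cholesterol genes, grouped by role, and each column 1 of the 25 libraries, grouped by treatment; colour gives log2 CPM less the gene's median over all libraries and stops at -3 and 3. C 11 is high in most rows (highest of all libraries for 17 genes), and C 12 and TWSD 2 hold the lowest value of 20 genes between them. The like counts over all genes tested were not made.

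The excess in C 11 and the deficit in C 12 were greatest for the synthesis enzymes. For the 9 squalene and sterol enzymes the mean relative log2 level was 2.14 in C 11 and -2.92 in C 12, and for the 6 early mevalonate enzymes 1.71 and -3.33. For the 5 sterol-sensing genes the values were 1.25 and -0.72, and for the 5 genes of uptake, transport and storage 0.39 and -1.51. TWSD 2 had another order, with -2.61 for sensing and -2.50 for uptake, transport and storage. Its values for the early and the later synthesis enzymes were -1.81 and -1.41.

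**Figure D2:**
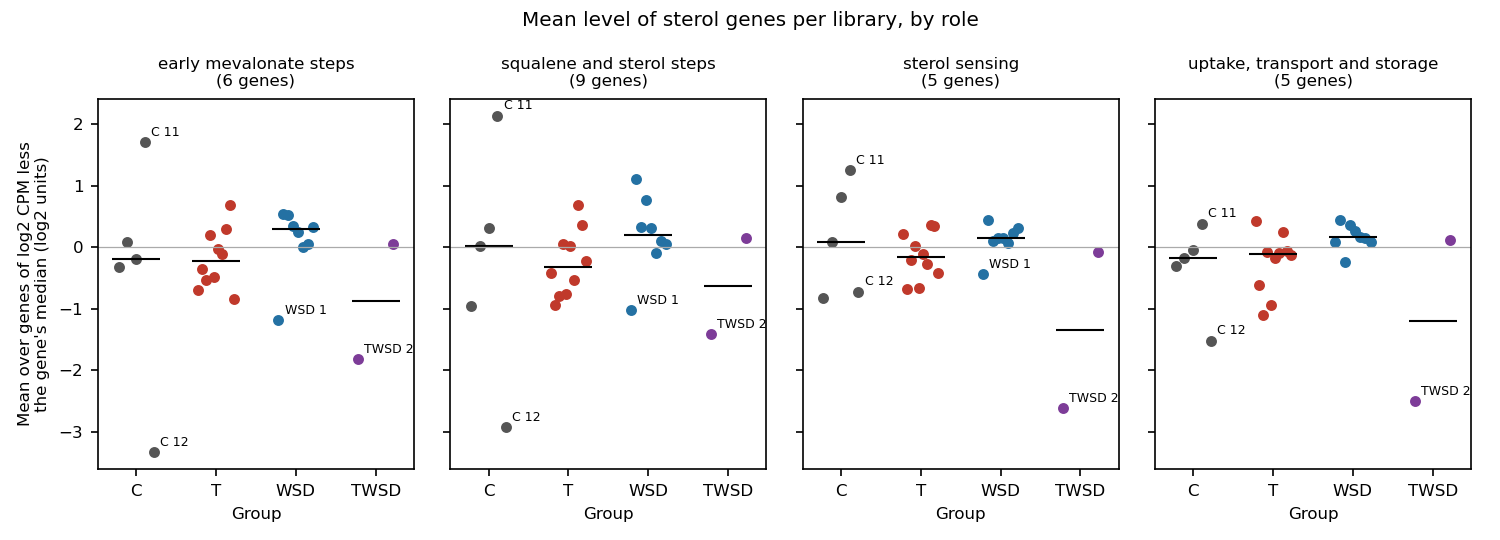
Each point is 1 library and gives the mean log2 level of the tested genes of 1 role, each gene relative to its median over all libraries; lines mark group medians. In the synthesis panels C 11 lies at 1.71 and 2.14 and C 12 at -3.33 and -2.92, outside the range of the T and WSD libraries.

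Single enzymes show the scale of this spread. TM7SF2, a reductase of the sterol ring, stood at 298 CPM in C 11, 6.60 times the highest level in any other library. MVK, which adds the first phosphate to mevalonate, was 4.57 times the next highest at 174 CPM. HSD17B7, a ketoreductase in the removal of sterol methyl groups, was 3.35 times the next at 261 CPM, and SC5D, a sterol desaturase, 2.82 times at 877 CPM. DHCR7, which carries out a final reduction to cholesterol, was at 715 CPM in C 11 and 3.29 CPM in C 12. PMVK, the second mevalonate kinase, was at 78.2 CPM in C 11 and 0.522 CPM in C 12. These 6 genes were chosen after their values were seen, except TM7SF2.

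The standard deviation (SD) of log2 CPM was wider in C than in T and in WSD for 23 of the 25 genes, or 92%, against 72.1% of all genes tested. The median SD of the 25 genes was 1.56 in C, 0.65 in T and 0.68 in WSD. Over all genes the medians were 1.35, 0.73 and 0.70. INSIG2 and SCARB1 were the exceptions, with the widest spread in T.

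The comparison of T with WSD does not use the levels of the control libraries directly. Controls enter it through the filter on low counts, the scaling and the shared estimate of the spread. It asks whether the pathway differs between embryos from the 2 single treatments. No cholesterol gene passed an adjusted p of 0.05 in edgeR's quasi-likelihood test (0 of 25), and neither did any other gene (0% of 13934). The adjusted p was 1.00 for each of the 25. Before adjustment 1 of the 25 had a p under 0.05, INSIG1, against 1.7% of all genes, or 237.

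Although none passed, the estimates leaned to one side. The log2 level was lower in T for 22 of the 25 genes, against 48.3% of all genes. The median log2 difference of the 25 was -0.39, with a range of -0.92 to 0.46, and the median of all genes was 0.01. Genes of 1 pathway vary together between libraries, so the 25 are not independent. The members were also chosen with earlier results of these data known, so the lean against the share of all genes is description and not a test. All 6 early enzymes were on the lower side, as were 8 of the 9 squalene and sterol enzymes, 4 of the 5 sensing genes and 4 of the 5 genes of uptake, transport and storage. The medians of these roles were -0.28, -0.46, -0.31 and -0.27. The exceptions were NSDHL, an enzyme of methyl-group removal, at 0.03, INSIG2 at 0.46 and SCARB1, the HDL receptor, at 0.19. With each library left out in turn, between 21 and 23 of the 25 stayed on the lower side, and the median ran from -0.45 to -0.30. Group medians of CPM gave a like count: 23 of 25 were lower in T, all but NSDHL and INSIG2.

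**Figure D3:**
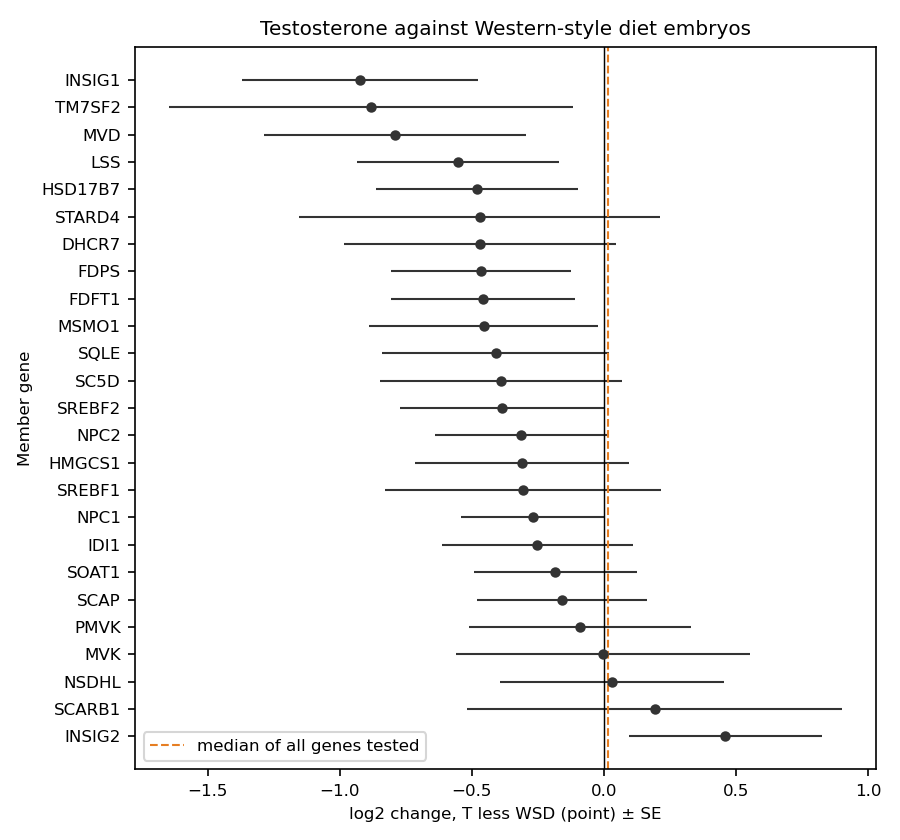
Log2 difference of T against WSD for each of the 25 tested genes, ordered by size; points are estimates, bars are 1 standard error (SE), and the dashed line is the median of all 13934 genes at 0.01. Of the 25 points 22 lie on the lower side of 0, and INSIG1 at -0.92 and INSIG2 at 0.46 are the ends of the range.

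Among the early enzymes, HMGCS1, which makes HMG-CoA, ran from 229.7 (T 11) to 1081 (T 10) CPM in T with a median of 560.4, and from 399 (WSD 6) to 1102 (WSD 10) in WSD with a median of 762. The groups overlapped over most of this range, as they did for every gene of the set (0 of 25 without overlap, against 0.00718% of all genes). The log2 difference was -0.31 ± 0.40 (SE). MVD, which decarboxylates mevalonate diphosphate, ran from 156 (T 11) to 588 (T 10) in T, median 233, and from 113 (WSD 1) to 773 (WSD 6) in WSD, median 448. The lowest library of all in this pair of groups was thus a WSD library. Mean levels of MVD were 285 ± 146 CPM (SD, n = 10) in T and 494 ± 232 (n = 8) in WSD, and the log2 difference was -0.79 ± 0.50. FDPS, which builds farnesyl diphosphate, ran from 102 to 307 in T, median 148, with T 9 highest. In WSD it ran from 152 (WSD 1) to 415 (WSD 3), median 203, and the log2 difference was -0.47 ± 0.34. Of the remaining early enzymes, MVK, PMVK and the isomerase IDI1 differed by -0.00 ± 0.56, -0.09 ± 0.42 and -0.25 ± 0.36.

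In the later steps, FDFT1, squalene synthase and so the first enzyme committed to sterols, ran from 481 (T 3) to 1246 (T 9) CPM in T, median 632. In WSD it ran from 479 (WSD 1) to 1932 (WSD 3), median 885. Both groups began at almost the same level, and the upper end was a WSD library; the log2 difference was -0.46 ± 0.35. LSS, which closes the sterol rings to lanosterol, ran from 118 (T 1) to 338 (T 10) in T, median 179, and from 74.1 (WSD 1) to 489 (WSD 3) in WSD, median 291. Its log2 difference was -0.55 ± 0.38. TM7SF2 ran from 1.67 (T 6) to 17.3 (T 11) in T, median 7.32, and from 5.22 (WSD 8) to 45.1 (WSD 3) in WSD, median 13.0. The difference of TM7SF2 was -0.88 ± 0.76, and -0.45 without WSD 3. The other later enzymes, SQLE (squalene epoxidase), MSMO1, HSD17B7, SC5D and DHCR7, lay between -0.48 and -0.39.

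The widest difference of a single gene between T and WSD was that of INSIG1, a sterol-sensing gene. As a role, sterol sensing had a median log2 difference of -0.31, against -0.46 for the squalene and sterol enzymes. INSIG1 ran from 74.6 (T 3) to 517 (T 9) CPM in T, median 202, and from 117 (WSD 1) to 905 (WSD 6) in WSD, median 332. Means were 226 ± 139 (SD, n = 10) in T and 428 ± 276 (n = 8) in WSD. The groups overlapped, with WSD 1 below the T median and T 9 above the WSD median. Its log2 difference was -0.92 ± 0.45, with an unadjusted p of 0.0484 and an adjusted p of 1.00 in edgeR's fit. Without WSD 6 it was -0.68. INSIG2, the paralogue, ran the other way, from 8.56 (T 8) to 34.2 (T 10) in T, median 17.0, and from 8.10 (WSD 7) to 24.3 (WSD 6) in WSD, median 14.5. The log2 difference of INSIG2 was 0.46 ± 0.37. SREBF2, the sterol-leaning transcription factor, ran from 215 (T 3) to 458 (T 9) in T, median 335, and from 336 (WSD 1) to 589 (WSD 3) in WSD, median 420.0. Here the WSD libraries began at about the T median, and the difference was -0.39 ± 0.39. SREBF1, the factor that also drives fatty acid synthesis, and SCAP differed by -0.31 ± 0.52 and -0.16 ± 0.32.

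In transport, NPC2, which hands cholesterol on inside the lysosome, ran from 297 (T 1) to 751 (T 5) CPM in T, median 426, and from 409 (WSD 7) to 869.5 (WSD 3) in WSD, median 557. The ranges overlapped, and the log2 difference was -0.31 ± 0.33. NPC1, its membrane partner, differed by -0.27 ± 0.27. STARD4, a soluble sterol carrier, and SOAT1, which esterifies cholesterol for storage, differed by -0.47 ± 0.68 and -0.18 ± 0.31.

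**Figure D4:**
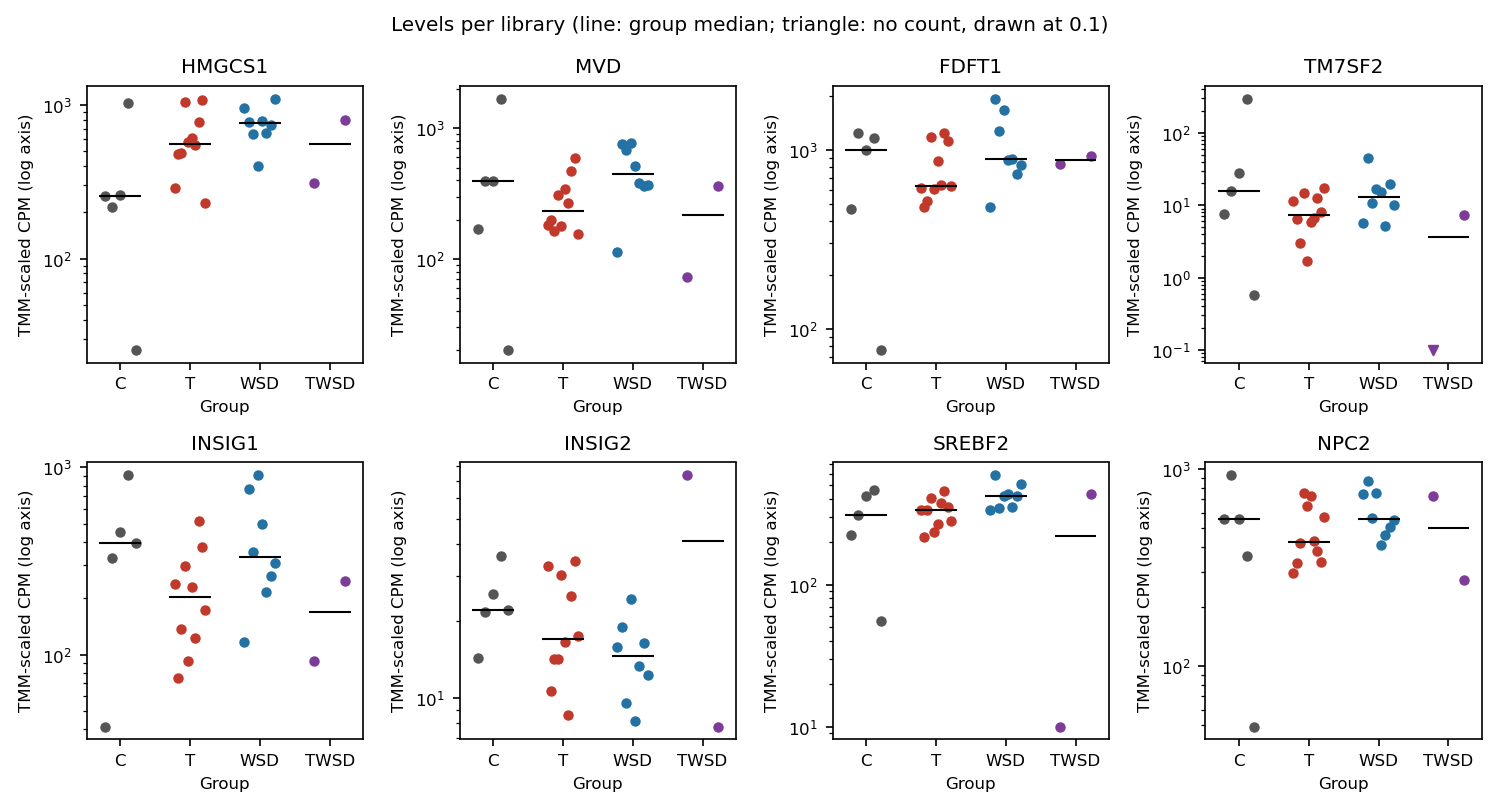
CPM per library on a log axis for 8 genes (HMGCS1, MVD, FDFT1, TM7SF2, INSIG1, INSIG2, SREBF2 and NPC2), 1 panel each; points are libraries, lines are group medians, and a triangle marks a library with no count, drawn at 0.1. T and WSD overlap in every panel, and C 11 at 298 CPM and TWSD 2 at 0 are the extremes of TM7SF2.

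The same WSD libraries recur at the ends of these ranges. Estimates for markers of several cell types also leaned to one side between T and WSD, with no marker gene past adjustment. WSD 3 and WSD 6 each had 21 of the 25 genes above their series median, and WSD 1 had 5. Such counts were not made over all genes tested. Summed CPM of the 8 primitive endoderm markers was 3617 in WSD 3, 4592 in WSD 6 and 1336 in WSD 1, the lowest of its group. In T the sum ran from 746 to 5029 with a median of 1487, and in WSD from 1336 to 4592 with a median of 2352. T 9, with 20 of the 25 genes above their median, had a sum of 3363. T 1 had the highest sum of the group, 5029, and lay at the low end for LSS and NPC2. These sums depend strongly on APOA1, which ran from 1.93 to 17177 CPM over the series. The next highest maximum of the 8 markers was 749.5 CPM, of COL4A1. FOXA2 was at 0 in 4 of the 25 libraries and HNF4A in 1. In T against WSD 7 of 8 tested primitive endoderm genes lay lower in T, none with an unadjusted p under 0.05.

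Other marker lists lay on the opposite side. Summed epiblast markers had a median of 1016 CPM in T (709 to 1512) and 793 in WSD (372.5 to 997), and 6 of 7 tested genes lay higher in T. Cumulus and granulosa markers had medians of 387 (258.5 to 858) and 242 (75.3 to 343), with 4 of 5 genes higher in T. Among these CYP11A1, the enzyme that opens steroid synthesis from cholesterol and is active in trophoblast as well, differed by 1.19 ± 0.45 (unadjusted p 0.0143, adjusted p 1.00 in edgeR). Its highest level over the series was 2618 CPM, against 667 for VCAN, the next highest of the 9 listed cumulus and granulosa genes. FSHR, AMH and FOXL2 had no count in 18, 16 and 20 of the 25 libraries, so the sum does not rest on these genes. Syncytiotrophoblast markers had medians of 144 (97.8 to 4247, T 1 highest) and 130 (96.8 to 552), with 7 of 8 genes higher in T. CGA, a hormone subunit, differed by 6.43 ± 2.02 (unadjusted p 0.00393) and GCM1, a trophoblast transcription factor, by 2.11 ± 0.90 (unadjusted p 0.0268), both at an adjusted p of 1.00 in edgeR. Below T 1, T 9 came next of its group with a syncytiotrophoblast sum of 297 CPM, which is inside the WSD range. Whether the CGA and GCM1 differences rest on T 1 alone was not tested. Trophectoderm markers had medians of 7210 and 8707, with 3 of 7 genes higher in T, and oocyte markers 10.7 and 7.54, with 3 of 5. The part of these markers in the difference between T and WSD was not tested.

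Oocyte markers were unevenly spread over single libraries. The 5 libraries with the highest sums were T 11 at 169 CPM, TWSD 2 at 83.6, WSD 1 at 52.1, T 4 at 32.0 and C 1 at 30.4. Their mean relative log2 levels of the 25 cholesterol genes were -0.39, -1.96, -0.72, -0.67 and -0.65, all below 0. The cut at 5 libraries was chosen after the values were seen. Next in order came T 8, T 7, TWSD 3 and WSD 6, with sums of 19.6, 16.8, 13.6 and 11.6 CPM. Their means were -0.29, -0.06, 0.08 and 0.46. C 12, T 6 and T 3, with means of -2.30, -0.71 and -0.68, had oocyte sums of 7.10, 1.67 and 6.40. The part of these markers in the levels was not tested.

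Comparisons of T, WSD and TWSD with C share the same 5 control libraries, so their values stand side by side below and are not evidence for one another. Against C, 1 of the 25 cholesterol genes passed in T, TM7SF2, which fell, where 4.11% of all genes passed and 3.77% passed as lower. None passed in WSD, where 4.07% of all genes did, and none in TWSD, where 1.2% did. At an unadjusted p under 0.05 there were 3 of 25, or 12%, in each comparison, against 18.3% of all genes in T, 18.3% in WSD and 22% in TWSD. These shares lie at or under the background. The median log2 change of the 25 was -0.41 in T, -0.04 in WSD and -0.65 in TWSD, and that of all genes -0.12, -0.12 and -0.38. The counts on the lower side were 19, 15 and 17 of 25, where 56.2%, 56.6% and 60.5% of all genes lay lower. No gene of the set had levels in T, WSD or TWSD that stood clear of all controls (0 of 25 in each), where 0.28%, 0.696% and 12% of all genes did.

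TM7SF2 stood at 7.58, 15.6, 28.3, 298 and 0.575 CPM in C 1, C 2, C 8, C 11 and C 12. The T libraries ran from 1.67 to 17.3 with a median of 7.32. C 1 and C 2 lay inside this range, C 8 and C 11 above it and C 12 below it. Means were 69.9 ± 128 CPM (SD, n = 5) in C and 8.72 ± 5.06 (n = 10) in T. TM7SF2 was lower by a log2 change of -3.00 ± 0.86 in T, with an adjusted p of 0.0445 from edgeR. Without C 11 the change was -0.58 with an adjusted p of 0.867. Over 34 alternative settings the change stayed below 0, the adjusted p ran from 0.00716 to 1.00, and 12 settings kept it under 0.05. Its changes in WSD and TWSD were -2.12 ± 0.91 (adjusted p 0.197) and -4.26 ± 1.75 (adjusted p 0.164) in the same edgeR fit, and without C 11 the change in WSD was 0.30. In the annotation of another build its span overlaps VPS51, and whether the counting used strand is not given in the sources used here. C 11 also held the primitive endoderm sum of 18657 CPM, and its part in the change of TM7SF2 was not tested.

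HSD17B7 and SREBF1 also had an unadjusted p under 0.05 in T, both on the lower side and neither past adjustment. HSD17B7 was at 19.0, 54.2, 48.5, 261 and 34.0 CPM in C 1, C 2, C 8, C 11 and C 12, and at 10.3 to 65.1 in T with a median of 33.0. All controls but C 11 lay inside the range of T. The log2 change was -1.27 ± 0.43, with an adjusted p of 0.0943 in edgeR and of 0.0407 in DESeq2. It was -1.52 (adjusted p 0.0233) without C 1 and -0.17 without C 11, and over all 34 alternatives the adjusted p ran from 0.0233 to 1.00. SREBF1 was at 53.2, 98.3, 579.9, 278 and 92.5 CPM in the same controls and at 43.3 to 183 in T with a median of 80.7. Its highest levels were C 8 and C 11, and T 1 was the highest T library. The log2 change of SREBF1 was -1.29 ± 0.58, with an adjusted p of 0.231 from edgeR.

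HMGCS1 and NPC1 lay on the other side. HMGCS1 was at 254, 215, 259, 1031 and 25.4 CPM in C 1, C 2, C 8, C 11 and C 12, and the T and WSD libraries ran from 229.7 to 1081 and from 399 to 1102. All WSD libraries thus lay above 4 of the 5 controls, and C 11 lay among the highest WSD libraries. The log2 change was 1.09 ± 0.51 in WSD (adjusted p 0.247) and 0.78 ± 0.49 in T (adjusted p 0.429) in edgeR's fit. Without C 11 the changes were 2.01 ± 0.48 (adjusted p 0.0198) and 1.70 ± 0.47 (adjusted p 0.0414). Of 34 alternatives, this was the only one in which HMGCS1 passed, and it stayed above 0 in all of them. The adjusted p ran from 0.0198 to 0.997 in WSD and from 0.0414 to 0.982 in T. NPC1 was at 60.8, 145, 36.7, 75.3 and 97.6 CPM in the controls, at 116 (WSD 3) to 217 (WSD 9) in WSD with a median of 155, and at 41.1 (T 1) to 170.0 (T 9) in T with a median of 142. C 2 was the only control inside the WSD range. Its log2 change was 0.92 ± 0.34 in WSD (adjusted p 0.120) and 0.65 ± 0.32 in T (adjusted p 0.285), both from edgeR. Without C 2 the change in WSD was 1.19 with an adjusted p of 0.0365, and over its 34 alternatives the adjusted p ran from 0.0365 to 0.997.

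The side on which most of the genes lay against controls depended on the libraries and on the method. With C 11 left out, 20 of the 25 were higher in WSD, with a median log2 change of 0.62, and the 5 lower ones were MVK, PMVK, SREBF1, INSIG2 and SCARB1. In T, 11 were lower and the median was 0.19. Leaving out C 12 in its place put 18 genes lower in WSD and 23 lower in T. In TWSD the counts of lower genes were 13 without C 11 and 22 without C 12. In WSD the side also turned with all controls kept: 14 genes were higher without WSD 1 (median 0.04), 13 with library totals (median 0.02) and 17 with voom and quality weights (median 0.15), against 10 in the reported fit. No direction of the set in WSD against controls held over all of these. The count of T against WSD moved by 1 gene at most under all alternatives run.

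**Figure D5:**
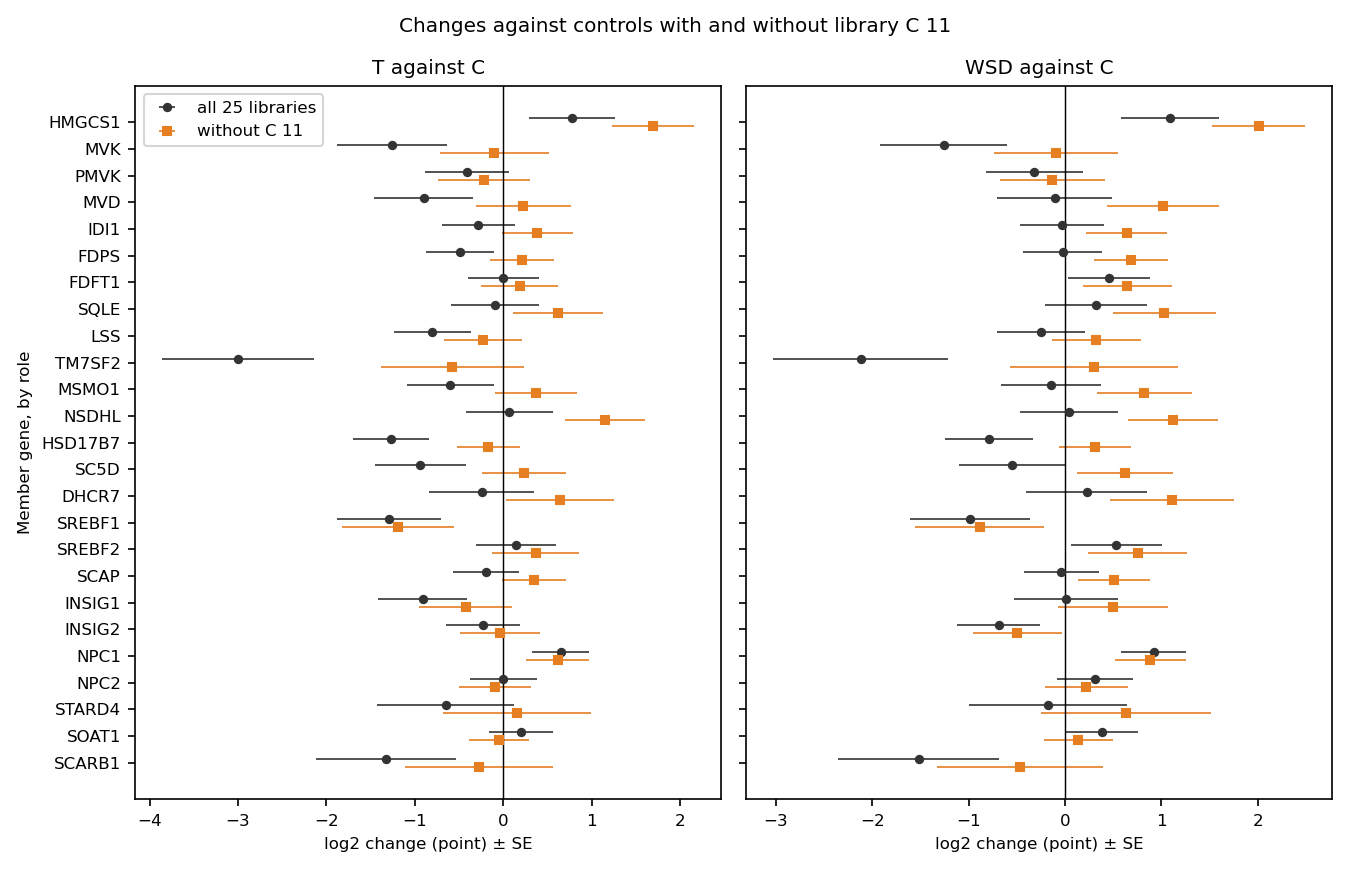
Log2 change against controls for the 25 tested genes in T and in WSD, with all 25 libraries and with C 11 left out; bars are 1 SE. In WSD the number of genes above 0 goes from 10 to 20, HMGCS1 goes from 1.09 to 2.01, and TM7SF2 goes from -2.12 to 0.30.

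The 2 TWSD libraries differed so widely that their mean describes neither. SREBF1 had 12 counts in TWSD 2 and 3774 in TWSD 3, or 0.773 and 136 CPM. SREBF2 had 156 and 11956 counts, or 10.05 and 429.8 CPM, and the lowest of the other 23 libraries was C 12 at 55.9. Both SREBF genes were thus lowest of the whole series in TWSD 2, while TWSD 3 lay inside the range of the other groups for SREBF1 and SREBF2. MVK had 4 and 543 counts, STARD4 4 and 951, SCARB1 1 and 367, and TM7SF2 0 and 201. INSIG2 was the reverse, with 1149 counts (74.0 CPM, the highest of all libraries) in TWSD 2 and 215 counts (7.73 CPM, the lowest) in TWSD 3. NPC2 was likewise higher in TWSD 2, at 725 against 272 CPM. Among the enzymes LSS was at 24.7 and 197 CPM, whereas FDFT1 at 833 and 921 and FDPS at 234 and 188 were close. These genes were chosen after their values were seen, apart from those named for T and WSD. TWSD 2 had a scaling factor of 0.76 and an oocyte marker sum of 83.6 CPM, second in the series to T 11, against 13.6 in TWSD 3. Its epiblast sum of 647 CPM lay inside the range of most libraries. The part of these in its levels was not tested.

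Against controls the 3 genes with an unadjusted p under 0.05 in TWSD were TM7SF2, MVK and LSS, all on the lower side. MVK changed by a log2 of -2.45 ± 1.14 (adjusted p 0.207) and LSS by -1.60 ± 0.74 (adjusted p 0.208), neither passing in edgeR. With TWSD 3 left out, so that TWSD 2 stood alone and was assumed to vary like the other groups, 7 of the 25 genes (28%) passed, all lower, among them SREBF2 at -4.87, and 20% of all genes passed. With TWSD 2 left out none of the 25 and none of all genes passed. The interaction asks whether the diet's effect differs with and without testosterone. It gave 0 of 25 past adjustment, against 0.0718% of all genes, and 2 of 25 at an unadjusted p under 0.05, against 13.6%. These were INSIG2 at 1.69 ± 0.70 (adjusted p 0.281) and NPC1 at -1.39 ± 0.58 (adjusted p 0.285) in edgeR's fit. Without TWSD 2 the value of INSIG2 was -0.71 and that of NPC1 -0.72. The median interaction of the 25 genes was -0.00, with 14 below 0, as were 51.8% of all genes. With TWSD 3 left out 5 of the 25 (20%) and 16% of all genes passed, and with TWSD 2 left out none of either did.

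Other genes of sterol metabolism, a list of 44 of which 42 were tested, covered the isoprenoid branch, SREBF processing and sterol-regulated degradation, further sterol enzymes and electron donors, transport and esters, and lipoprotein receptors with the LXR arm. In T against WSD none of the 42 passed, 24 lay lower and 18 higher, and the median log2 difference was -0.05. Against controls 2 of the 42 (4.76%) fell in T, where 4.11% of all genes passed, and 1 (2.38%) fell in WSD, where 4.07% did. None passed in TWSD or in the interaction. These shares are near the background. OSBPL2, a sterol and lipid transfer protein of the oxysterol-binding family, was at 624, 569, 523, 448 and 2192 CPM in C 1, C 2, C 8, C 11 and C 12. It ran from 409 to 502 in T (median 428) and from 312 to 604 in WSD (median 379). C 12 was far above all other libraries, and the other controls except C 11 lay above every T library. The log2 change of OSBPL2 was -0.99 ± 0.28 in T (adjusted p 0.0414) and -1.12 ± 0.29 in WSD (adjusted p 0.0308) by edgeR. Without C 12 it was -0.29 in T (adjusted p 0.587) and -0.43 in WSD (adjusted p 0.347), and 15 and 22 of its 33 alternatives kept an adjusted p under 0.05, with ranges of 0.0201 to 1.00 and 0.0139 to 0.997. NR1H2, which encodes the oxysterol receptor LXR beta, was at 128, 89.9, 78.2, 164 and 191 CPM in the controls and at 55.9 to 93.4 in T, median 71.4. C 1, C 11 and C 12 lay above every T library. Its change was -0.84 ± 0.24 with an adjusted p of 0.0463 in edgeR. Of its 34 alternatives 11 kept the adjusted p under 0.05, over a range of 0.0086 to 1.00, and without C 12 it was 0.233.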

How the data were processed

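RNA sequencing was made on 25 libraries of rhesus macaque blastocysts. The authors deposited 1 table of raw counts per gene, whole numbers without normalization, per the file headers and values. Per the submitters' processing notes, FastQC 0.11.8, Trimmomatic 0.39 and STAR 2.7.0 were used with the genome build Mmul_10. How reads were counted, with which annotation and whether by strand, is not given in the sources used here, so reads of overlapping genes may be shared or lost. In the RefSeq annotation of another build (MMU8v2.0), 14 of the 28 listed genes overlap another gene and 4 overlap a protein-coding one (ACAT2, FDPS, TM7SF2 and NPC1). A symbol table paired 24173 of 35395 identifiers with a name.

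A gene was tested where 5 libraries or more reached 1 CPM. TMM scaling was applied, and edgeR 4.0.16 (R 4.3.3) fitted 1 model with the 4 groups and no covariate to the 25 libraries. The quasi-likelihood F-test with robust dispersions was adjusted by Benjamini-Hochberg over all 13934 genes, with a threshold of 0.05. A standard error is the log2 change divided by the square root of F. Levels are TMM-scaled CPM, not corrected for gene length, so they compare libraries within 1 gene only. Log2 CPM used a prior count of 2. The interaction is the diet's effect with testosterone less its effect without. The script was tested on simulated data. Within groups no library repeated another (84 pairs, smallest chi-square per gene 71.7). Totals of 14219054 to 35544542 counts set the counting precision.

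Alternatives were DESeq2 size factors, library totals, DESeq2 1.42.0, limma 3.58.1 (voom with quality weights), no filter, only the groups compared, a replicate block, each library left out, C 8, C 11, C 12 and T 1 left out, and, chosen after seeing the data, C 11, C 12 and TWSD 2 left out. Genes were named by rule: those that passed in any comparison, the 6 with the smallest p in T against WSD, and the highest mean CPM in each role; others are said to be chosen after their values were seen, as were HSD17B7, SREBF1, NPC1, OSBPL2 and NR1H2. The members and lists were chosen with earlier results of these data known.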

Additional observations from a re-analysis of the deposited data

Results flagged for a closer look

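In each group of 5, 8 or 10 libraries the highest and lowest log2 level of each tested cholesterol gene, and of the mean over them, was checked for a gap to its neighbour that is wide against the range of the group. Of 78 such checks 7 stood out, where chance gives about 1 in 20. The genes vary together between libraries, so the checks are not independent and an excess over chance cannot be read from this count. PMVK in C was lowest in C 12, with a gap of 0.863 of the range of the group. NPC1 in T was lowest in T 1, with a gap of 0.637. The other 5 all concern WSD 1, the lowest WSD library for MVK (0.671), IDI1 (0.65), SQLE (0.63), LSS (0.613) and MVD (0.607), all enzymes of synthesis. WSD 1 had 15005205 counts in all, and its primitive endoderm sum of 1336 CPM was the lowest of its group. Its oocyte marker sum of 52.1 CPM and its blood marker sum of 21.8 CPM were the highest of its group. The part of these in the gaps was not tested. T 1 had 4247 CPM of syncytiotrophoblast markers, and their part in its NPC1 level was not tested.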

How the results depend on the processing

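T against WSD had 0 genes of the set past the threshold under every alternative run, with 21 to 23 of 25 on the lower side; DESeq2 called 6 genes in all and the other alternatives 0. With each library left out in turn it had 0 to 0 calls in the set and 0 to 0 in all genes. DESeq2 size factors moved no count of calls by over 1.5 times. Library totals in place of TMM moved the median of all genes from -0.12 to 0.02 in T against C and to -0.01 in WSD against C, and DESeq2 size factors moved both to -0.19.

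Against controls the counts depended on the method. Calls over all genes in T, WSD, TWSD and the interaction, in this order, were 573, 567, 167 and 10 in the reported fit. Library totals gave 240, 321, 96 and 5, and DESeq2 1102, 1185, 1995 and 395. Voom with quality weights gave 0 in each (1241, 1165, 428 and 237 at an unadjusted p under 0.05). Without the filter TWSD had 92 and the interaction 4. With only the groups compared the counts were 114, 30 and 0 (885 unadjusted in TWSD). Without C 8, C 11, C 12 and T 1 they were 0 (693 unadjusted), 1, 32 and 4, and without C 11, C 12 and TWSD 2 they were 2, 5, 3 and 1.

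For the set itself, DESeq2 called 2 genes in T against C and 1 in TWSD against C. Library totals, voom, no filter, only the groups compared and both removals of several libraries gave 0 in T against C. The replicate numbers gave no clear pairing of the libraries, though a check on so few numbers cannot exclude a weak one. Correlations of same-numbered libraries ran from -0.21 to 0.22 over 8 shared numbers of T and WSD. Of these, 1 of 8 was closest to its own number. With the replicate block 0 genes of the set passed in T against C, and over all genes 0 passed in T, WSD, TWSD and the interaction (786, 566, 1817 and 398 unadjusted). With the block 20 of the 25 lay lower in T against C (median -1.02) and 20 in WSD against C (median -0.56).

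Leaving out 1 library gave 0 (without C 12) to 2 calls in the set and 64 (without C 12) to 1249 (without C 1) over all genes in T against C. WSD against C had 0 to 1 and 57 (without C 12) to 1103 (without C 1). TWSD against C had 0 to 7 and 0 (without TWSD 2) to 2784 (without TWSD 3), and the interaction 0 to 5 and 0 (without TWSD 2) to 2235 (without TWSD 3). Over these removals TM7SF2 in WSD against C ran from -2.55 (without WSD 3) to 0.30 (without C 11), in the interaction from -8.41 to 1.85, and HSD17B7 in WSD against C from -1.04 (without C 1) to 0.31. TM7SF2 turned in WSD against C to 0.30 without C 11 and to 0.50 without C 8, C 11, C 12 and T 1. In the interaction it turned to -2.00 with voom, -0.24 with the replicate block, -1.57 without C 11, -8.41 without TWSD 3, -1.72 without C 8, C 11, C 12 and T 1 and -0.18 without C 11, C 12 and TWSD 2. HSD17B7 in WSD against C turned to 0.31 without C 11, to 0.42 without C 8, C 11, C 12 and T 1, and to 0.26 without C 11, C 12 and TWSD 2. The cause was not tested. With 2 TWSD libraries, and 5 controls of which 2 lie at the ends of the series, changes against C of the size seen in single genes could often not be told from the spread.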
